A study of Homo sapiens with 8 samples.

Results

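The genes described here are 47 components of Toll-like receptor (TLR) and NF-κB signalling: adaptors, kinases, ubiquitin ligases, NF-κB subunits, their inhibitors and a few target genes. They were listed by symbol as pathway genes, with earlier results of these data known, so the shares given for them describe a chosen set. Each of the 47 symbols matched 1 Ensembl gene of the 30233 in the table. RNA-seq was run on THP-1, a human monocytic leukaemia line labelled wild type, with 2 groups of 4 libraries. The LPS + 3-HPA group received 5 mM 3-HPA (3-hydroxypropionic acid, a small organic acid) together with LPS, and the LPS group received LPS alone. LPS, a component of the bacterial outer membrane that TLR4 recognises, was given at 100 ng/mL in each group. All cells had first been exposed to the phorbol ester PMA at 100 ng/ml for 24 h, which turns this line into macrophage-like cells, and then rested without it for 24 h. The treatment protocol describes 3-HPA and LPS as given at the same time, while the series description calls the 3-HPA a pretreatment. The sources used here do not give how long the cells saw LPS. There was neither an unstimulated library nor any with 3-HPA and no LPS, so all comparisons lie between LPS-stimulated states. THP-1 is a single tumour-derived line, and the labels do not say that libraries came from separate cultures, so each p-value reflects library-to-library spread alone, possibly of technical origin.

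When TLR4 binds LPS, the adaptor MyD88 recruits IRAK kinases and the ubiquitin ligase TRAF6, while the adaptor TRIF serves a second branch that leads to interferon. These routes converge on the kinase TAK1 and the IκB kinase (IKK) complex, which marks IκB proteins for destruction and frees NF-κB dimers to enter the nucleus. NF-κB then switches on inflammatory genes together with its own brakes, among them IκBα, the ubiquitin-editing enzyme A20 and the RNA-cutting enzyme Regnase-1. A slower, non-canonical route runs through the kinase NIK and the NF-κB subunits p100 (NFKB2) and RelB.

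Depth, recovered from the values themselves, was 35647756 to 41859879 reads per library. Of 9 monocyte and macrophage markers, 6 were higher with 3-HPA, among them CD14 (log2 fold change 0.77) and CSF1R (0.49), and LYZ did not pass. Their summed level was 1759.1 to 1829.8 FPKM in the LPS + 3-HPA libraries and 1414.5 to 1459.8 FPKM in the LPS libraries; the part of this shift in the results below was not tested. FPKM is the number of fragments scaled to gene length and library total, so levels can be compared between genes. In bulk RNA, fewer cells of a kind and less RNA per cell cannot be told apart. Of 12 markers of other cell types, 6 had values. The symbols of the others (CD3D, CD3E, EPCAM, KRT18, CDH5 and HBB) matched no gene in the table. The sum was 11.3 to 12.8 FPKM with 3-HPA and 6.17 to 6.77 FPKM with LPS alone. Nearly all of that sum was PECAM1 and COL1A1, which rose (0.86 and 0.65), while the B-cell gene MS4A1 and the haemoglobin gene HBA1 were at or near 0. The macrophage markers CD68 (0.0259 to 0.126 FPKM) and AIF1 (0.0 FPKM except for 1.47 FPKM in LPS + 3-HPA library 3) were close to 0, as was LDHA, an enzyme gene that cells generally use (0.0 to 0.0643 FPKM). A listed value near 0 therefore cannot be read as a gene that is off.

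With 3-HPA the pathway moved down more often than up, and its parts moved apart. MYD88 fell furthest, and the genes of all 5 NF-κB subunits fell with it. The nuclear IκB-family genes NFKBID and BCL3 and the kinase genes MAP3K8 and MAP3K14 rose. Negative regulators split: the A20 gene TNFAIP3 fell, the gene of its partner TNIP1 rose, and NFKBIA for IκBα did not pass. Of the 47 genes, 44 reached 0.5 FPKM in at least 4 libraries and were tested, and each of these had at least 1.41 FPKM in every library. By limma with Benjamini-Hochberg adjustment over all 12499 genes tested, 34 of the 44 passed an adjusted p of 0.05, or 77.3%, against 43.7% of all genes. Of these, 9 were higher (20.5%, against 15.7% of all genes) and 25 were lower (56.8%, against 28.0%). The groups did not overlap in 33 of the 44 (75%, against 42.2% of all genes). These shares over all genes were not matched for expression level and include genes with lower values than any of the 44. With a filter at 1 FPKM, 1866 of 10460 genes were higher and 3326 lower, while the 44 still gave 9 and 25. The median log2 fold change, on the log2(FPKM + 1) scale, was -0.09 over the 44 genes and -0.05 over all genes. In parentheses below, a signed value before an adjusted p is a log2 fold change on this scale. Most changes were small: 29 of the 34 had an absolute log2 fold change under 0.5, with a median of 0.24 beside 0.25 for all genes that passed. The split between directions depended on the scaling of the libraries. It was 11 higher and 18 lower with TMM scaling (trimmed mean of M values, which sets the bulk of genes level), where all genes split into 2596 higher and 2521 lower, against 1967 and 3495 as deposited.

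**Figure D1:**
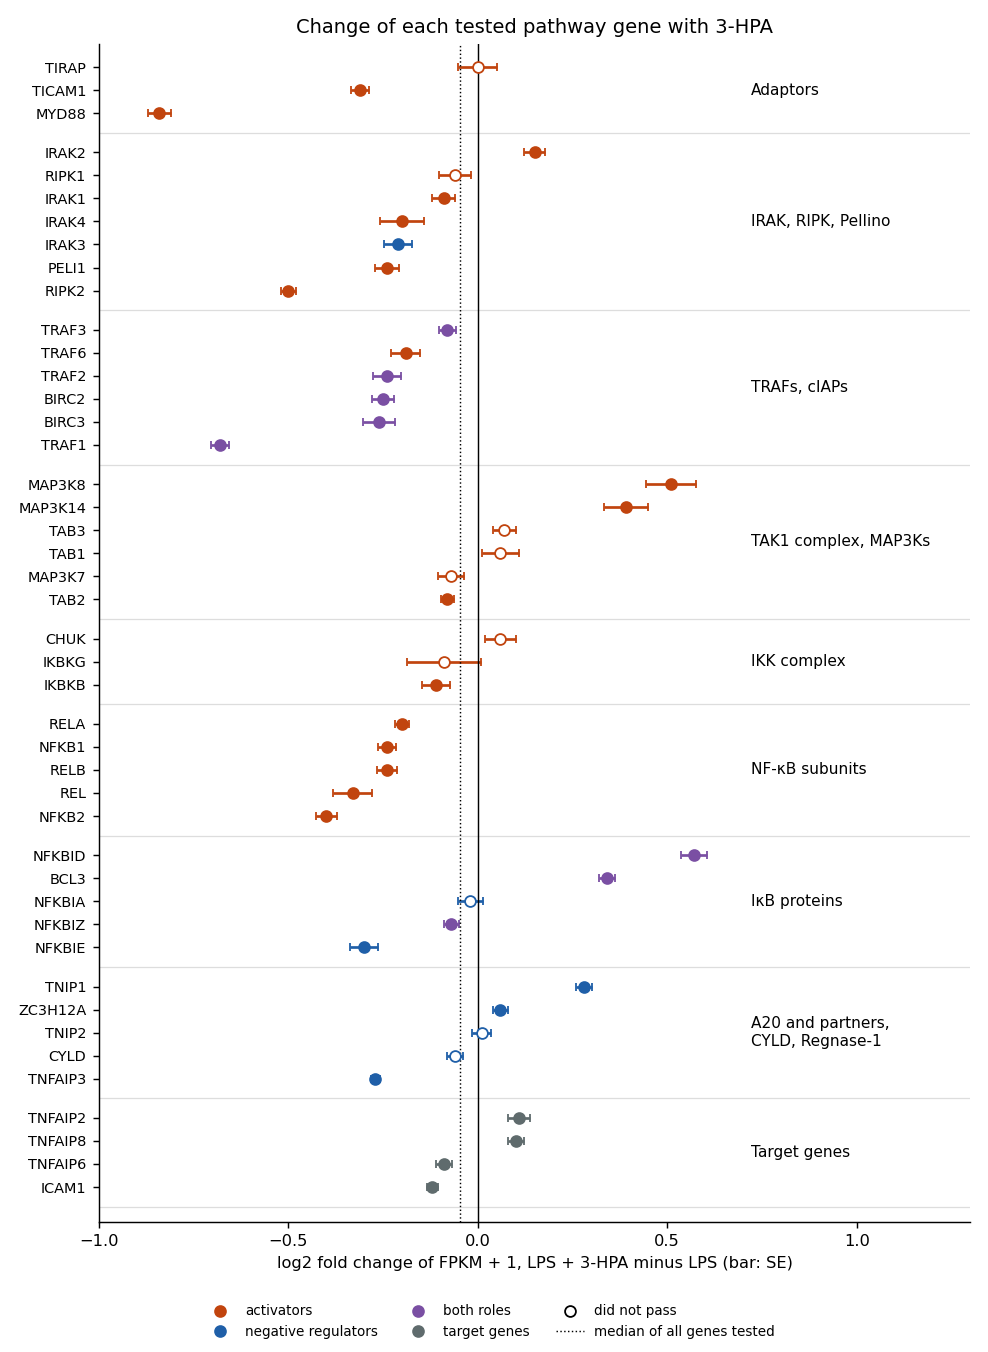
Log2 fold change of FPKM + 1 (LPS + 3-HPA minus LPS, horizontal axis) for the 44 tested genes, in blocks by place in the pathway and coloured by role. Points are estimates, bars are standard errors, open points did not pass an adjusted p of 0.05, and the dotted line is the median of all genes tested (-0.05). MYD88 lies furthest left at -0.84 and NFKBID furthest right at 0.57, and every TRAF, cIAP and NF-κB subunit gene lies left of 0.

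The promoters of these genes are shown because NF-κB controls many of its own components, so the pathway's members can be compared at the sequence where it acts. RefSeq windows (GRCh38.p14) from 250 bases before to 50 bases after an annotated start were used for 42 of the 47 genes. The other 5 (TIRAP, IKBKB, RELB, NFKBIE and RIPK2) were not searched. All of these but TIRAP fell, so the counts by direction below leave out some falls, among them that of RIPK2 (log2 fold change -0.50). The κB consensus, the 10-base motif bound by NF-κB dimers, was searched on both strands, and overlapping matches, as at the first site of NFKB2 and the site of REL, appear as a single run of capitals. It occurred in at least 1 window of 18 of the 42 genes (42.9%), and in 13.3% of all 27305 genes with a RefSeq window. The share over all genes was not limited by chromosome, whereas the 47 genes had no window on the chromosome that holds IKBKB and RIPK2. Genes with several annotated starts have several windows, and counted by window the shares were 36.8% of 68 and 11.3% of 35116. It was found in 4 of 9 genes that rose, 10 of 21 that fell and 2 of 9 that did not pass, so matches stood in genes of either direction. By role, 6 of 9 negative regulators, 7 of 21 activators, 5 of 8 genes with both roles and 0 of 4 target genes held a match. Of 3 genes with a window whose expression was not tested, 2 held a match. The 120 bases upstream of a start are given for 9 picked genes, with the matches in capitals. All of these but MYD88 hold a match, beside 18 of the 42 genes, so they do not stand for the whole set. Where a gene has several starts, the stretch with the most matches is shown: NFKB1, NFKB2, TNIP1 and NFKBID each also have a window with none, and each window of MAP3K8 holds 1. MYD88, with the largest fall, had no match in its window.
MYD88 (chr3:38138541-38138660, plus strand): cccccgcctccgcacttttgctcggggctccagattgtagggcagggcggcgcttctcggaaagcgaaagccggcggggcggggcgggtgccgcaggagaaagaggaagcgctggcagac
NFKB1 (chr4:102501239-102501358, plus strand): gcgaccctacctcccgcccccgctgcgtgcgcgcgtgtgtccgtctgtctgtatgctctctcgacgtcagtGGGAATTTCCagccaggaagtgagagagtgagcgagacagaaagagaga
NFKB2 (chr10:102394458-102394577, plus strand): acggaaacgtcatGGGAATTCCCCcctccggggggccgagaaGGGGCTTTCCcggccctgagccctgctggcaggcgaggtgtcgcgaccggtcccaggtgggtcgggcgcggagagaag
REL (chr2:60881454-60881573, plus strand): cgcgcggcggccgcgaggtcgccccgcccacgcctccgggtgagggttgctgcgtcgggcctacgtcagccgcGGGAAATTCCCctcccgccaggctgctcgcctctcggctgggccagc
TNFAIP3 (chr6:137867139-137867258, plus strand): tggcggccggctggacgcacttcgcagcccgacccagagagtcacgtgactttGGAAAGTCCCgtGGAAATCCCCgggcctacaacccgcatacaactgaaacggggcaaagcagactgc
NFKBIA (chr14:35404750-35404869, minus strand): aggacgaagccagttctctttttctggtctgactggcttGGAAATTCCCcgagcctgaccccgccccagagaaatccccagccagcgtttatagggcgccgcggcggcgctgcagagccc
TNIP1 (chr5:151081035-151081154, minus strand): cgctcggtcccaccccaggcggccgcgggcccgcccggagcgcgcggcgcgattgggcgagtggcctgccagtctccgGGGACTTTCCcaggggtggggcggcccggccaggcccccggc
MAP3K8 (chr10:30433901-30434020, plus strand): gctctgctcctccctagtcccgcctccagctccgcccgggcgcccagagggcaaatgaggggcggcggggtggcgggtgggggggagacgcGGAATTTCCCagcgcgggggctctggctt
NFKBID (chr19:35900541-35900660, minus strand): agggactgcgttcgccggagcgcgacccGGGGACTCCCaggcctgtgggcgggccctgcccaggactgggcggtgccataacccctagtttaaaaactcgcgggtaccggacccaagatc
The first 5 of these genes fell, NFKBIA did not pass, and the last 3 rose. TNFAIP3 held a pair of matches, starting 67 and 55 bases upstream, and NFKBIA held a match 81 bases upstream. A match describes the letters only, and binding was not measured.

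Among the adaptors, both that are well expressed fell. MYD88 (ENSG00000172936; GRCh38 chromosome 3, 38138478 to 38143022) encodes the adaptor shared by most TLRs and the IL-1 receptor. It had 40.4, 37.8, 39.4 and 36.5 FPKM in the LPS + 3-HPA libraries, against 71.1, 69.7, 69.8 and 68.5 FPKM in the LPS libraries. Every LPS + 3-HPA library lay below every LPS library, and mean expression fell by 44.7% (log2 fold change -0.84, SE 0.030, adjusted p = 7.06e-08). TICAM1, for TRIF, the adaptor of the interferon-inducing branch, had 44.9, 42.4, 43.6 and 43.3 FPKM in the LPS + 3-HPA libraries, against 53.4, 53, 56 and 54.4 FPKM in the LPS libraries. Here too the groups were apart, with means of 43.5 ± 1.02 FPKM with 3-HPA and 54.2 ± 1.37 FPKM with LPS alone (SD, n = 4 each; log2 fold change -0.31, SE 0.024, adjusted p = 8.6e-06). TIRAP, the bridge between TLR4 and MyD88, did not pass (1.57 ± 0.111 FPKM with 3-HPA and 1.57 ± 0.112 FPKM with LPS alone; adjusted p = 0.965). TICAM2, for the bridge between TLR4 and TRIF, was listed at 0.0 to 0.0492 FPKM, with at most 7 reads in a library, and was not tested. The annotated readthrough gene TMED7-TICAM2 shares 82.2% of its exon bases on the same strand.

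The IRAK family was split. IRAK2, a kinase that sustains TLR signalling, had 85.2, 86.4, 86.3 and 84.5 FPKM in the LPS + 3-HPA libraries, against 76.2, 75.1, 75.8 and 82.2 FPKM in the LPS libraries. All LPS + 3-HPA libraries lay above all LPS libraries, although LPS library 4 stood above the other LPS libraries (log2 fold change 0.15, SE 0.028, adjusted p = 0.00268). IRAK3 encodes IRAK-M, an inhibitory family member of monocytes and macrophages. It had 6.94, 6.92, 6.32 and 6.97 FPKM in the LPS + 3-HPA libraries, against 8.11, 7.89, 7.75 and 8.32 FPKM in the LPS libraries, so it fell while IRAK2 rose (log2 fold change -0.21, SE 0.037, adjusted p = 0.00157). IRAK4 (-0.20, adjusted p = 0.0193) and IRAK1 (-0.09, adjusted p = 0.0434), the kinases that act first at MyD88, were slightly lower. Neither call was stable: IRAK1 did not pass when LPS + 3-HPA library 1, 2, 3 or 4 or LPS library 2, 3 or 4 was left out (adjusted p 0.0558 to 0.109), and IRAK4 did not pass without LPS + 3-HPA library 3 or LPS library 1 or 3 (0.0512 to 0.0532). After TMM scaling, IRAK1 (-0.03, adjusted p = 0.478) and IRAK4 (-0.15, adjusted p = 0.0589) did not pass. Quantile normalisation also ended both calls (adjusted p = 0.136 for IRAK1 and 0.0582 for IRAK4). Within a library the FPKM ratio of IRAK2 to MYD88, in which library scaling cancels, was 2.22 ± 0.0934 with 3-HPA and 1.11 ± 0.0614 with LPS alone (SD, n = 4 each). This ratio and those below were chosen after the values were seen and were not tested.

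RIPK2, the kinase that carries signals from the NOD receptors to NF-κB, had 68.5, 66.6, 65.4 and 66.1 FPKM in the LPS + 3-HPA libraries, against 95.2, 92.9, 94.1 and 97.3 FPKM in the LPS libraries. The groups lay far apart beside their spread, and the mean fell by 29.8% (log2 fold change -0.50, SE 0.020, adjusted p = 1.26e-07). The gene of RIPK1, a kinase of TNF receptor and TRIF signalling, did not pass (-0.06, adjusted p = 0.243). PELI1, for the ubiquitin ligase Pellino-1 that modifies IRAK1 and RIPK1, fell (-0.24, adjusted p = 0.000289).

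TRAF proteins and cIAPs assemble the ubiquitin scaffolds that link receptors to the kinases, and all 6 of their genes here fell. TRAF1, which NF-κB itself induces and which modulates signals of TRAF2, had 81.5, 77.2, 77.7 and 77.2 FPKM in the LPS + 3-HPA libraries, against 127.0, 125.2, 123.2 and 129.7 FPKM in the LPS libraries. It was lower in every LPS + 3-HPA library, and its mean fell by 37.9% (log2 fold change -0.68, SE 0.023, adjusted p = 5.08e-08). TRAF6, the ligase that the IRAKs activate, had 3.62, 3.67, 3.3 and 3.48 FPKM in the LPS + 3-HPA libraries, against 4.23, 4.12, 4.18 and 4.01 FPKM in the LPS libraries. Its change was small but larger than the spread (log2 fold change -0.19, SE 0.038, adjusted p = 0.0036). BIRC3, for cIAP2, had 5.41, 5.29, 4.76 and 5.07 FPKM in the LPS + 3-HPA libraries, against 6.31, 6.63, 6.08 and 6.31 FPKM in the LPS libraries (log2 fold change -0.26, SE 0.042, adjusted p = 0.000955). BIRC2, for cIAP1, had 20.6, 19.9, 19.4 and 20.4 FPKM in the LPS + 3-HPA libraries, against 25.3, 23.8, 23.9 and 23.4 FPKM in the LPS libraries (log2 fold change -0.25, SE 0.030, adjusted p = 0.000136). Both cIAP genes were lower in every LPS + 3-HPA library than in any LPS library. Together with TRAF2 (-0.24, adjusted p = 0.000758) and TRAF3 (-0.08, adjusted p = 0.0174), the cIAPs form the complex that keeps NIK degraded in resting cells. TRAF3 did not pass after TMM scaling (log2 fold change -0.03, adjusted p = 0.384) or quantile normalisation (-0.04, adjusted p = 0.174).

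**Figure D2:**
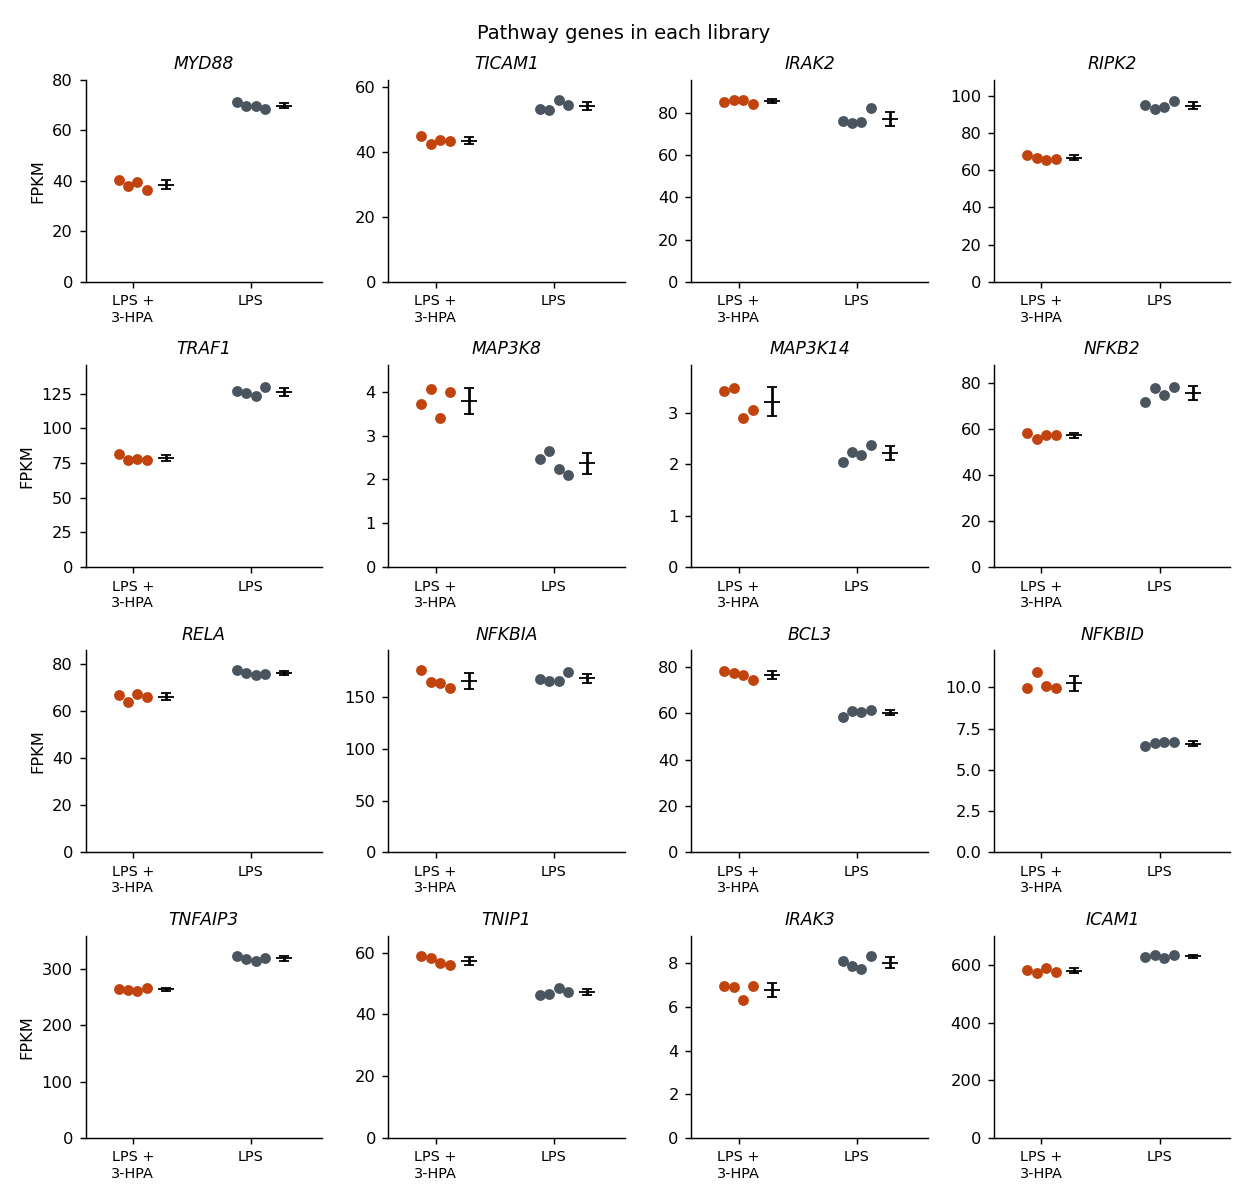
FPKM (vertical axes, from 0) of 16 pathway genes in each library, with LPS + 3-HPA on the left and LPS on the right of each panel. Points are libraries 1 to 4 from left to right, and the bars beside them show the mean and SD (n = 4). The groups are apart in every panel except that of NFKBIA, whose libraries lie between 158.2 and 176.2 FPKM with 3-HPA and between 165.2 and 174.2 FPKM with LPS alone.

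Among the kinases below the receptors, the genes of 2 MAP3Ks rose. MAP3K8 encodes Tpl2, which p105 (NFKB1) holds inactive and which drives ERK signalling after LPS. It had 3.72, 4.06, 3.4 and 3.99 FPKM in the LPS + 3-HPA libraries, against 2.46, 2.65, 2.24 and 2.11 FPKM in the LPS libraries. The highest LPS library lay below the lowest LPS + 3-HPA library (log2 fold change 0.51, SE 0.065, adjusted p = 0.000212), although only 303 to 577 reads per library stood behind these values. MAP3K14, for NIK, had 3.42, 3.48, 2.9 and 3.05 FPKM in the LPS + 3-HPA libraries, against 2.05, 2.23, 2.17 and 2.38 FPKM in the LPS libraries (log2 fold change 0.39, SE 0.058, adjusted p = 0.000536). Here too every LPS + 3-HPA library lay above every LPS library. The antisense gene MAP3K14-AS1 shares 12.3% of its exon bases, and the sources used here do not give the strand setting of the counting. The ratio of MAP3K14 to NFKB2, the precursor that NIK acts on through IKKα, was 0.0561 ± 0.00533 with 3-HPA and 0.0291 ± 0.000862 with LPS alone (SD, n = 4 each).

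TAK1 and IKK genes changed little. MAP3K7 for TAK1 (-0.07, adjusted p = 0.136) and TAB1 (0.06, adjusted p = 0.342) and TAB3 (0.07, adjusted p = 0.0952) for its binding partners did not pass, though the groups did not overlap in TAB3. TAB2, another partner, was lower by a small amount (104.2 ± 1.49 FPKM with 3-HPA and 110.4 ± 1.76 FPKM with LPS alone; -0.08, adjusted p = 0.00392), but not after TMM scaling (-0.02, adjusted p = 0.359). Of the IKK genes, CHUK for IKKα (0.06, adjusted p = 0.265) and IKBKG for the regulatory subunit NEMO (-0.09, adjusted p = 0.495) did not pass. IKBKB for IKKβ passed narrowly with overlapping groups (-0.11, adjusted p = 0.0456). That call ended without LPS + 3-HPA library 2, 3 or 4 or LPS library 2, 3 or 4 (adjusted p 0.0765 to 0.109). It also ended after TMM scaling (-0.05, adjusted p = 0.313) and quantile normalisation (-0.07, adjusted p = 0.147). IKBKG has a near-identical pseudogene copy, so its reads are uncertain.

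All 5 NF-κB subunit genes fell, with no overlap between groups in any. NFKB2, for p100 and its product p52, had 58.3, 55.9, 57.4 and 57.6 FPKM in the LPS + 3-HPA libraries, against 71.9, 77.7, 75 and 78.4 FPKM in the LPS libraries. The mean fell by 24.3% (log2 fold change -0.40, SE 0.028, adjusted p = 4.92e-06). RELB, for its usual partner RelB, had 56, 53.6, 52.2 and 55.1 FPKM in the LPS + 3-HPA libraries, against 63, 63.1, 66.7 and 64.8 FPKM in the LPS libraries (log2 fold change -0.24, SE 0.027, adjusted p = 9.27e-05). Both subunit genes of the non-canonical route were lower, while the gene of its kinase NIK was higher. NFKB1, for p105 and p50, had 11.7, 11.7, 11.7 and 12.1 FPKM in the LPS + 3-HPA libraries, against 13.9, 14.4, 14 and 14.2 FPKM in the LPS libraries (log2 fold change -0.24, SE 0.023, adjusted p = 3.31e-05). RELA, for the main transactivating subunit p65, had 66.9, 64, 67.4 and 65.9 FPKM in the LPS + 3-HPA libraries, against 77.3, 76.1, 75.5 and 75.9 FPKM in the LPS libraries (log2 fold change -0.20, SE 0.019, adjusted p = 3e-05). For RELA the gap between the groups was wider than the range within either. REL, for c-Rel, had 3.93, 3.33, 3.69 and 3.75 FPKM in the LPS + 3-HPA libraries, against 4.71, 5.23, 4.61 and 4.9 FPKM in the LPS libraries (log2 fold change -0.33, SE 0.051, adjusted p = 0.000772). It was the lowest of the 5 in level, and an annotated gene on the same strand, which has no symbol beyond its clone name, shares 43.3% of its exon bases. These 5 calls held under each of the 16 alternatives tried.

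The IκB genes, whose products bind NF-κB, did not move together. NFKBIA (ENSG00000100906; chromosome 14, 35401511 to 35404749) encodes IκBα, the first inhibitor to be destroyed and made anew. It had 176.2, 164.0, 163.2 and 158.2 FPKM in the LPS + 3-HPA libraries, against 167.1, 165.2, 165.4 and 174.2 FPKM in the LPS libraries. The groups overlapped and the gene did not pass (log2 fold change -0.02, SE 0.033, adjusted p = 0.614). NFKBIE, for IκBε, had 62.9, 59.4, 64.5 and 57.5 FPKM in the LPS + 3-HPA libraries, against 75.2, 73.6, 73.5 and 78.4 FPKM in the LPS libraries and fell (log2 fold change -0.30, SE 0.038, adjusted p = 0.000225). NFKBIB, for IκBβ, held at most 2 reads in a library and was not tested; SIRT2, which shares 40 of its exon bases on the opposite strand, held at most 1. The nuclear members act inside the nucleus and can raise or lower transcription. Of these, NFKBID (IκBNS) had the highest log2 fold change of the 44 genes on the log2(FPKM + 1) scale. By the ratio of mean FPKM, MAP3K8 rose more (1.61, against 1.55 for NFKBID). NFKBID had 9.95, 10.9, 10.1 and 9.99 FPKM in the LPS + 3-HPA libraries, against 6.42, 6.6, 6.7 and 6.66 FPKM in the LPS libraries. All its LPS + 3-HPA libraries were well above the LPS libraries (log2 fold change 0.57, SE 0.034, adjusted p = 1.68e-06). BCL3, a partner of p50 and p52 homodimers, had 78.2, 77.3, 76.4 and 74.4 FPKM in the LPS + 3-HPA libraries, against 58.5, 60.8, 60.5 and 61.2 FPKM in the LPS libraries (log2 fold change 0.34, SE 0.021, adjusted p = 1.98e-06). NFKBIZ, for IκBζ, which is needed for a set of secondary response genes, was slightly lower (36.9 ± 0.668 FPKM with 3-HPA and 38.9 ± 0.66 FPKM with LPS alone; -0.07, adjusted p = 0.0157), but not after TMM scaling (-0.01, adjusted p = 0.62). The ratio of BCL3 to NFKB1 was 6.5 ± 0.257 with 3-HPA and 4.26 ± 0.0625 with LPS alone, and that of NFKBIA to RELA was 2.51 ± 0.111 with 3-HPA and 2.2 ± 0.0615 with LPS alone (SD, n = 4 each).

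A20 and its partners were split. TNFAIP3 (ENSG00000118503; chromosome 6, 137867188 to 137883312) encodes A20, which edits ubiquitin chains and shuts signalling off. It had 265.5, 263.7, 260.6 and 265.9 FPKM in the LPS + 3-HPA libraries, against 323.6, 318.9, 314.7 and 319.0 FPKM in the LPS libraries. The libraries of each group lay close together and the groups lay far apart (log2 fold change -0.27, SE 0.013, adjusted p = 4.41e-07). TNIP1, for ABIN-1, which brings A20 to its targets, had 58.9, 58.2, 56.5 and 56.1 FPKM in the LPS + 3-HPA libraries, against 46.3, 46.6, 48.4 and 47.3 FPKM in the LPS libraries, higher in every LPS + 3-HPA library (log2 fold change 0.28, SE 0.022, adjusted p = 9e-06). The ratio of TNIP1 to TNFAIP3 was 0.218 ± 0.00483 with 3-HPA and 0.148 ± 0.00443 with LPS alone (SD, n = 4 each). TNIP2, for ABIN-2, which stabilises Tpl2, did not pass (0.01, adjusted p = 0.689), and TNIP3, for ABIN-3, lay below the filter at 0.0595 to 0.229 FPKM. CYLD, another deubiquitinase, did not pass (-0.06, adjusted p = 0.0626), though its groups did not overlap. ZC3H12A, for Regnase-1, which degrades inflammatory mRNAs, had 211.6, 221.2, 219.7 and 217.7 FPKM in the LPS + 3-HPA libraries, against 204.3, 212.3, 206.4 and 212.7 FPKM in the LPS libraries. The groups overlapped, and the small rise (log2 fold change 0.06, SE 0.020, adjusted p = 0.0399) ended with equal FPKM totals (0.02, adjusted p = 0.438) and without LPS + 3-HPA library 2, 3 or 4 or LPS library 1 or 3 (adjusted p 0.0778 to 0.101).

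The target genes with other functions included the most abundant of the set. ICAM1, for the leukocyte adhesion molecule, stood highest in both groups, with 583.8, 574.5, 592.5 and 576.6 FPKM in the LPS + 3-HPA libraries, against 629.2, 635.7, 626.5 and 635.6 FPKM in the LPS libraries. It fell by 7.89%, a small change beside a smaller spread (log2 fold change -0.12, SE 0.014, adjusted p = 0.000114). TNFAIP6, for the hyaluronan-binding protein TSG-6, was lower (413.8 ± 6.55 FPKM with 3-HPA and 441.1 ± 12.1 FPKM with LPS alone; -0.09, adjusted p = 0.00746), though not after TMM scaling (-0.03, adjusted p = 0.295). TNFAIP8, whose product dampens apoptosis, rose, with 46.8, 46.5, 44.8 and 45.9 FPKM in the LPS + 3-HPA libraries, against 43.7, 43.6, 41.7 and 42.7 FPKM in the LPS libraries (log2 fold change 0.10, SE 0.021, adjusted p = 0.00569). Its groups lay close but did not overlap. TNFAIP2, induced by TNF in endothelial and myeloid cells, had 300.1, 311.1, 319.2 and 313.4 FPKM in the LPS + 3-HPA libraries, against 276.9, 297.5, 279.0 and 295.4 FPKM in the LPS libraries (log2 fold change 0.11, SE 0.029, adjusted p = 0.0111). All LPS + 3-HPA libraries lay above the LPS libraries, with LPS libraries 2 and 4 the nearest, and the call ended with equal FPKM totals (0.08, adjusted p = 0.061).

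Activators and negative regulators were set side by side, with roles assigned from textbook knowledge. All 5 NF-κB subunit genes were counted as activators, among them NFKB1, although its product p105 also holds Tpl2 inactive. No other role was tried for these 5 genes, and all of them fell, so the activator counts rest in part on this choice. Among 24 tested activators 3 rose (IRAK2, MAP3K8 and MAP3K14), 14 fell and 7 missed the threshold; their median log2 fold change was -0.10. Among 8 tested negative regulators 2 rose (TNIP1 and ZC3H12A), 3 fell (TNFAIP3, NFKBIE and IRAK3) and 3 missed it (NFKBIA, TNIP2 and CYLD), and their median was -0.04. The 8 genes with both roles, namely TRAF1, TRAF2, TRAF3, BIRC2, BIRC3, NFKBIZ, NFKBID and BCL3, had 2 rises and 6 falls and a median of -0.16. All genes tested had a median of -0.05, with 15.7% higher and 28.0% lower, and the counts of so few negative regulators lie near those shares. Whether the classes differ was not tested, and their genes are not replicates. Taken per library as the median difference from each gene's LPS mean, activators lay at -0.145 to -0.122 in the LPS + 3-HPA libraries and at -0.019 to 0.011 in the LPS libraries. Negative regulators lay at -0.065 to -0.019 with 3-HPA and at -0.021 to 0.016 with LPS alone, so LPS + 3-HPA library 1 reached into the LPS range. All genes lay at -0.049 to -0.045 with 3-HPA and at -0.003 to 0.003 with LPS alone. TMM scaling gave 5 rises and 10 falls among activators (median -0.05) and 2 and 3 among negative regulators (median 0.02), and equal FPKM totals gave 3 and 15 (median -0.13), and 1 and 4 (median -0.08).

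**Figure D3:**
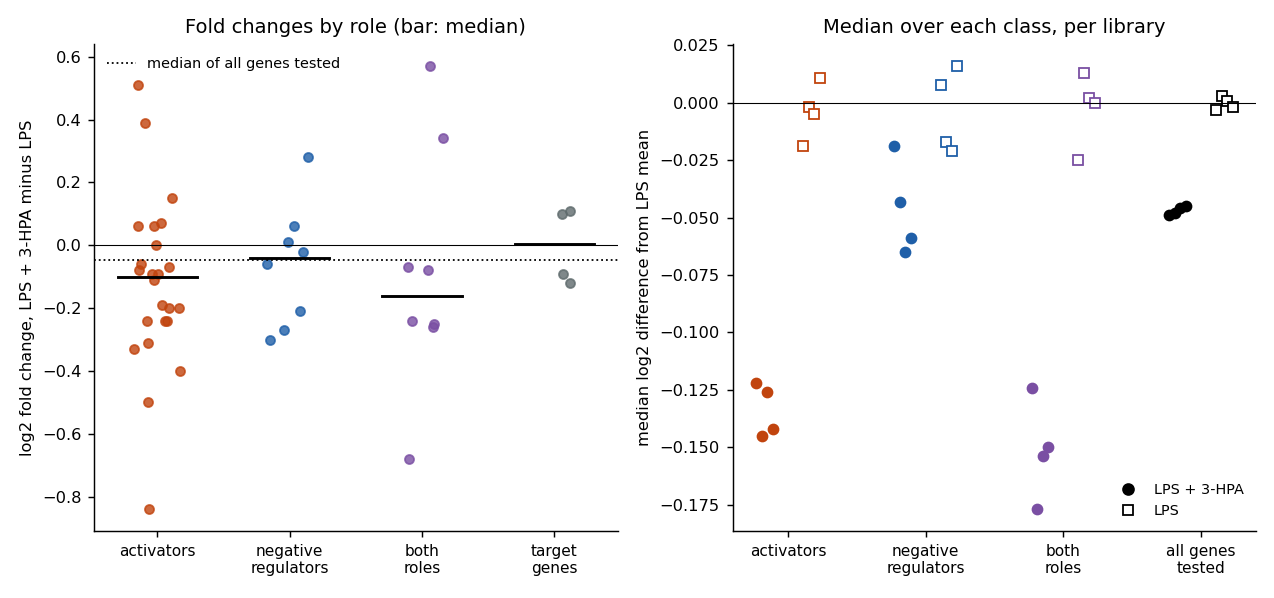
Left, log2 fold change (LPS + 3-HPA minus LPS) of each tested gene by role, with a bar at the class median (activators -0.10, negative regulators -0.04, both roles -0.16, target genes near 0) and a dotted line at the median of all genes tested. Right, for each library, the median over a class of the log2(FPKM + 1) difference from the LPS mean, with filled circles for LPS + 3-HPA and open squares for LPS. The filled circles of activators and of genes with both roles lie below those of all genes, while those of negative regulators lie around them.

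Counting only calls that held under all 16 alternatives left 25 of the 34. These were 7 rises (IRAK2, MAP3K8, MAP3K14, NFKBID, BCL3, TNFAIP8 and TNIP1) and 18 falls. Activators kept 3 rises and 10 falls, and negative regulators kept 1 rise and 3 falls. The 9 calls that ended under some alternative were those of IRAK1, IRAK4, IKBKB, TAB2, TRAF3, NFKBIZ, TNFAIP6, TNFAIP2 and ZC3H12A, and each had an absolute log2 fold change of 0.20 or less.

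**Figure D4:**
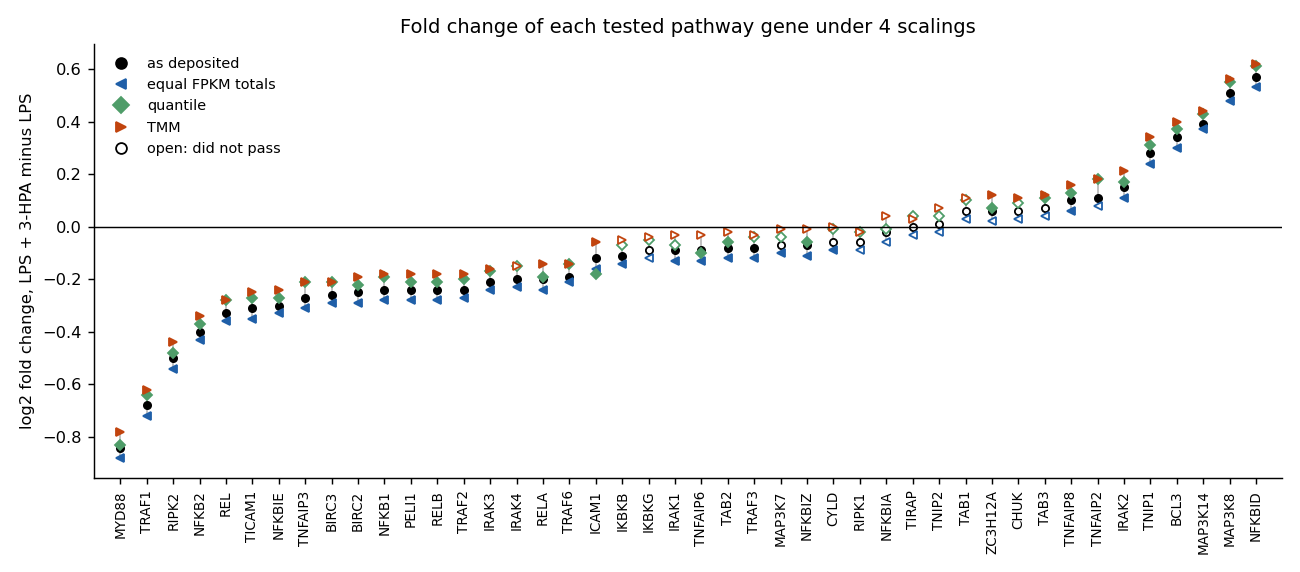
Log2 fold change (LPS + 3-HPA minus LPS, vertical axis) of each tested gene (horizontal axis, in rising order) as deposited and under 3 other scalings of the libraries; open symbols did not pass an adjusted p of 0.05. Scaling shifts most genes together, with TMM mostly highest and equal FPKM totals mostly lowest, so the calls near 0 change while MYD88 (-0.88 to -0.78) and NFKBID (0.53 to 0.62) keep their side.

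Other genes of the pathway, outside the 47, were counted in the same way. Of 37 listed from the ubiquitin, kinase and regulator machinery, 34 were tested: 3 rose and 13 fell, while 18 missed the threshold, and the median was -0.06. All genes tested were also lower more often than higher (28.0% and 15.7%), with a median of -0.05, so these counts are no result about the list. The largest falls were in RBCK1, a subunit of the linear ubiquitin ligase LUBAC (log2 fold change -0.54, adjusted p = 2.92e-06), the TNF receptor adaptor TRADD (-0.37, adjusted p = 0.000647), COMMD1, which promotes RelA turnover (-0.34, adjusted p = 0.000241), and ATF3, a repressor that LPS induces (-0.29, adjusted p = 8.44e-06). The rises were in the kinase gene MAP3K3 (0.34, adjusted p = 1.83e-05), TRAF4 (0.33, adjusted p = 0.0114) and PELI3 for Pellino-3 (0.19, adjusted p = 0.0115). TMM scaling gave 4 rises and 11 falls in this list, with 17 genes above 0 and 17 below.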

How the data were processed

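RNA-seq was measured in 8 THP-1 libraries, 4 with LPS + 3-HPA and 4 with LPS, grouped by their labels. The values are FPKM per gene as deposited by the authors. The submitters' processing notes name fastp 0.22.0, HISAT2 2.1.0, featureCounts and GRCh38, without saying in which role each was run; the sources used here give neither RNA selection nor strand setting. FPKM divides by the reads counted, so a shift in abundant genes moves all other values, which is why other scalings were tried.

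The read totals were recovered from the FPKM steps: values came out as whole reads, within 0.01, for 99.9% of genes, with the GENCODE 29 length for 13722 genes and otherwise the smallest length that made every value whole. Recovered reads served for depth and for 1 alternative test. Depth was 35647756 to 40362671 reads with 3-HPA and 37509810 to 41859879 reads with LPS alone, so 1 read in a 2 kb gene was 0.0119 to 0.014 FPKM.

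Genes with at least 0.5 FPKM in at least 4 libraries were tested on log2(FPKM + 1) with limma 3.58.1 (R 4.3.3), LPS + 3-HPA minus LPS, with Benjamini-Hochberg adjustment over all 12499 genes and a threshold of 0.05. A pseudocount of 1 understates the change of low genes. Alternatives were TMM scaling (unweighted), equal FPKM totals, quantile normalisation, a pseudocount of 0.1, a filter at 1 FPKM or none, voom on recovered reads, a replicate block, and each library left out. Promoters came from RefSeq (GRCh38.p14), and gene positions from GENCODE 29. Python 3.11.15 with pandas 2.3.3, numpy 2.4.6 and matplotlib 3.10.9 was used for summaries and plots. Values by library are given for genes that passed without overlap, up to the 12 largest changes in each direction, and for MYD88, IRAK3, TRAF6, NFKB1, RELA, REL, NFKBIA, TNFAIP3, TNIP1, ZC3H12A and ICAM1 in any case. Outside the 47, the 4 largest changes that passed in each direction are named. The genes and lists were chosen with earlier results of these data known.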

Additional observations from a re-analysis of the deposited data

Results flagged for a closer look

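In 9 of 94 sets of 4 libraries (each of the 47 genes in each group), the highest or lowest library stood apart from the other 3 by more than Dixon's 95% limit, which chance alone does in about 1 in 20. IRAK1 stood at 58.7 FPKM in LPS + 3-HPA library 2, against 62.6 to 62.7 FPKM in the others of that group. IRAK2 stood at 82.2 FPKM in LPS library 4, against 75.1 to 76.2 FPKM in the others, and still below every LPS + 3-HPA library. IRAK3 stood at 6.32 FPKM in LPS + 3-HPA library 3, against 6.92 to 6.97 FPKM. TRAF1 stood at 81.5 FPKM in LPS + 3-HPA library 1, against 77.2 to 77.7 FPKM. NFKB1 stood at 12.1 FPKM in LPS + 3-HPA library 4, where the other 3 were at 11.7 FPKM. NFKBID stood at 10.9 FPKM in LPS + 3-HPA library 2, against 9.95 to 10.1 FPKM. PELI1 stood at 18.2 FPKM in LPS library 3, against 19.2 to 19.3 FPKM. NFKBIB, with at most 2 reads in a library, was listed at 0.0213 FPKM in LPS + 3-HPA library 2 alone of its group, and at 0.0 FPKM in LPS library 4, where the others had 0.0209 to 0.0229 FPKM. LPS + 3-HPA library 2 is the odd library in 3 of these sets (IRAK1, NFKBID and NFKBIB).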

How the results depend on the processing

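Of the 34 calls, 25 kept their direction and side of the threshold under all 16 alternatives, 9 lost the threshold under at least 1, and none of the 34 reversed. Outside the 34, TAB3 rose after TMM scaling (adjusted p = 0.0106) and quantile normalisation (0.0151), CHUK rose after TMM scaling (0.0492), MAP3K7 fell with equal FPKM totals (0.0397), and CYLD fell with equal FPKM totals (0.0102) and voom (0.0441). Activators that rose numbered 5 after TMM scaling and 5 with both-role genes counted among them. Negative regulators that rose numbered 1 with equal totals, 1 without a filter and 4 with both-role genes counted among them, which also raised those that fell to 9. Leaving out a library gave 8 to 9 rises and 22 to 24 falls over the 44 genes, 3 to 3 and 11 to 13 among activators, 1 to 2 and 3 to 3 among negative regulators, and 1794 to 1833 and 3115 to 3218 over all genes. The labels do not say whether the replicate numbers pair the libraries. Same-numbered deviations correlated at -0.02, -0.00, 0.04 and 0.09, and differently numbered ones at -0.06 to 0.08. Such values cannot show whether same-numbered libraries shared a culture. With the replicate block the 44 genes gave 9 rises and 22 falls, and all genes 1854 and 3220. All genes split into 1686 rises and 4240 falls with equal totals and 2376 and 2755 after quantile normalisation. NFKBIB, TICAM2 and TNIP3 had too few reads for a comparison, and the cause was not tested.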

Other observations

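TOLLIP, which binds TLR complexes and dampens IRAK1, was uneven within both groups: 4.36, 2.35, 1.26 and 1.08 FPKM in the LPS + 3-HPA libraries and 1.04, 1.12, 3.73 and 4.07 FPKM in the LPS libraries. The high values stood in LPS + 3-HPA libraries 1 and 2 and LPS libraries 3 and 4, the groups overlapped, and the gene did not pass (log2 fold change -0.08, adjusted p = 0.895).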
